A study of Mus musculus with 6 samples.

Results

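The genes of haem synthesis were followed step by step in fetal liver HSCs (haematopoietic stem cells) of mice that carry or lack Uqcrfs1. The 9 genes were chosen by symbol from the 23951 rows of the read count table. They are Alas1 and Alas2, Alad, Uros, Urod, Cpox, Ppox and Fech in the order of the pathway, and Hmox1, which breaks haem down. Uqcrfs1 encodes RISP, the Rieske subunit of mitochondrial complex III, the enzyme that passes electrons from ubiquinol to cytochrome c. Total RNA was sequenced in 3 libraries labelled RISP wild type (WT) and 3 labelled RISP knockout (KO), all of the strain C57BL/6. The labels give no embryonic age, no deleter line and no sign of whether libraries came from separate embryos, so p-values measure the spread between these libraries only.

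Haem is an iron-holding porphyrin ring, and it is built in a relay between mitochondrion and cytosol. ALAS joins glycine and succinyl-CoA inside the mitochondrion, the middle steps assemble the ring in the cytosol, and the last steps return to the mitochondrion, where ferrochelatase inserts iron. The first step has a pair of isoenzymes. Alas1 is used in every tissue for cytochromes and other haem proteins, and Alas2, on the X chromosome, serves red cell precursors that fill with haemoglobin. Fetal liver is the main site where red cells form before birth, and HSCs lie upstream of that lineage.

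The promoters of both ALAS genes are shown because the results turn on how the isoenzymes differed, and that of Cpox because it carries the same kind of motif as Alas2. The sequences are from RefSeq (GRCm38.p6), which is a later build than the mm9 build of the deposited tables, and capitals mark the motif matches. RefSeq promoter windows were found for 7 of the 9 genes, and not for Fech or Hmox1. For Alas2 (chrX:150547167-150547416, plus strand) and Cpox (chr16:58669958-58670207, plus strand) the 250 bases before the transcript start are given, with GATA factor motifs in capitals. For Alas1 (chr9:106247906-106247935, minus strand) a 30-base stretch around an NRF1 motif is given. It lies before the inner of both annotated starts.
Alas2: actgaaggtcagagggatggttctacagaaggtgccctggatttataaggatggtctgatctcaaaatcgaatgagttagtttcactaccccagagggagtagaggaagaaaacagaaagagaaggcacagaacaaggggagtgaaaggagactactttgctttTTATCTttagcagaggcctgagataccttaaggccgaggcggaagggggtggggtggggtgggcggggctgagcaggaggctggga
Cpox: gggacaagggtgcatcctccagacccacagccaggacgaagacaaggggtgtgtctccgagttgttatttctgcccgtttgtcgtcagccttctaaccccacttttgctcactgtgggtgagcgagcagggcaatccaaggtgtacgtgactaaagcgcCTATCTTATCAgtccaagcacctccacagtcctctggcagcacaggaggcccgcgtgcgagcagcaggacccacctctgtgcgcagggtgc
Alas1: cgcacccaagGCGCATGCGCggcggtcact
GATA motifs (GATA after A or T and before A or G, either strand) are the sites read by GATA1, the master factor of red cell genes. One began 86 bases before the Alas2 start, and a pair of overlapping matches lay 91 and 86 bases before the Cpox start. Such a motif was in 3 of the 10 windows of these 7 genes (those of Alas2, Cpox and Uros), against 29.8% of all 32851 promoter windows of 300 bases. The palindromic NRF1 motif (both strands), read by a factor of nuclear genes for mitochondria, was in 3 of the 10 windows (of Alas1 and Uros) and in 4.6% of all windows. The KLF motif CCNCNCCC was in 9 of the 10 windows and in 49.5% of all windows. Both windows of Alas1 share sequence, as do those of Alad, so some of the same NRF1 and KLF matches were counted in each. By gene, the GATA motif was in 3 of 7, the NRF1 motif in 2 of 7 and the KLF motif in 7 of 7. The share by gene over all promoters was not computed. Matches to TGANNNNGC, the core read by NRF2 and BACH1, were in 3 of the 10 windows (of Cpox and Uros) and in 41.3% of all. The composite ATF4 motif TGATGNAAN had 0 matches in the windows of these genes and was in 3.95% of all. A match is a description of letters and does not show binding.

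Libraries held 10191354 to 13189329 counts (WT) and 12020128 to 14590844 counts (KO). Uqcrfs1 checked the labels, with 771, 1320 and 791 counts in the WT libraries, against 60, 51 and 39 in the KO libraries (values of a group are always given from replicate 1 to 3). Stem cell markers were present in every library, with a summed level of 2149 to 2653 CPM (counts scaled to TMM-adjusted library sizes) in WT and 1787 to 1979 in KO. WT replicate 3 stood apart by markers of macrophages, at a summed 1230 CPM against 56.7 to 220 in the other 5 libraries, and of endothelium, at 1106 CPM against 146 to 397.5. Xist and Y-linked counts differed between libraries, with 0 Xist counts in KO replicate 2 and 0 Y-linked counts in KO replicate 1. WT replicates 2 and 3 and KO replicate 3 held both, with 5842 to 16004 Xist counts and 604 to 1022 Y-linked counts each, and the labels do not say whether a library pools embryos. In bulk libraries such as these, fewer cells of a type and less RNA per cell cannot be told apart.

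Of the synthesis genes, Alas2 and Fech fell the most. These, the erythroid entry enzyme and the final iron-inserting enzyme, were several-fold lower in KO. In the middle of the pathway Uros, Urod and Cpox had KO means of 55.9%, 58.4% and 71.4% of WT, and of these only Urod passed the threshold given below. Alas1, Alad and Ppox had KO means of 88.3%, 96.3% and 97.1% of WT. Of the 9 genes, all of which were among the 12204 tested, 3 were lower and 0 higher at an adjusted p under 0.05 (edgeR quasi-likelihood test, Benjamini-Hochberg over all genes tested). Over all genes 11.4% passed, 4.99% lower and 6.41% higher. At an unadjusted p under 0.05, 4 of the 9 were lower and 0 higher. The share of all genes at that threshold was not computed, here or for the lists below. DESeq2 and limma-voom each called 3 of the 9 lower and 0 higher, and over all genes called 1795 and 1285 in either direction. The limma-voom fit tested the same 12204 genes, and DESeq2 started from every gene with a count. Their shares of all genes by direction were not computed, here or for the lists below. The WT and KO libraries did not overlap for 5 of the 9, all lower in KO, against 14.5% of all genes tested. The median log2 fold change was -0.78 over the 9 genes and -0.02 over all genes tested.

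**Figure D1:**
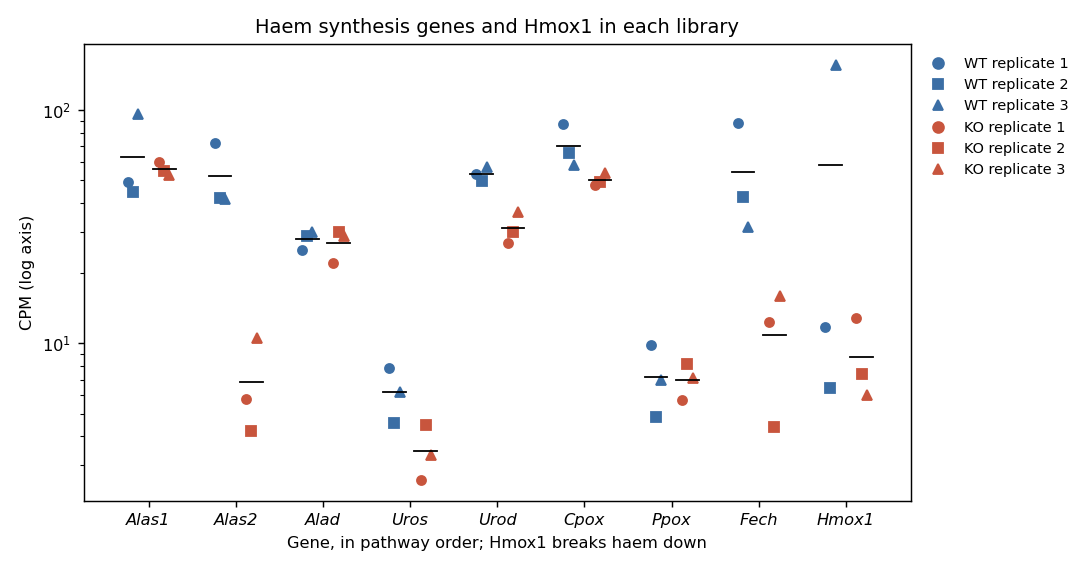
CPM (log axis) of the 9 genes in each library, in pathway order with Hmox1 last; blue is WT, red is KO, marker shapes are replicates and black bars are group means. Alas2, Uros, Urod, Cpox and Fech have all KO points below all WT points, and Hmox1 has a single high point at 157 CPM in WT replicate 3.

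Alas2 had the smallest p of the 9 genes. The WT libraries held 72.3, 42.1 and 41.6 CPM, and the KO libraries 5.77, 4.19 and 10.6 CPM. Every KO library lay below every WT library, and WT replicate 1 was the highest. The mean was 52.0 ± 17.6 CPM in WT and 6.84 ± 3.32 in KO (SD, n = 3 each), so KO held 13.2% of the WT level. Alas2 fell by 2.93 on the log2 scale (SE 0.35, edgeR adjusted p = 1.45e-05), and each of the 6 fits that left out 1 library kept the call. Since Alas2 is X-linked, a fit that took in each library's Y-linked counts was made, which gave -2.89 (adjusted p = 1.71e-05). On the authors' RPKM values the call was lost with a pseudocount of 0.1 (-2.58, limma adjusted p = 0.0741) and without a filter (-2.34, adjusted p = 0.0572).

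Alas1, the isoenzyme of all tissues, showed no clear change in either direction. It was at 49.0, 44.8 and 95.9 CPM in WT and at 59.8, 54.9 and 52.8 CPM in KO. The groups overlapped, and the KO libraries lay between WT replicate 3 and the other WT libraries. The log2 fold change was -0.18 with a 95% interval of -0.69 to 0.33 (edgeR adjusted p = 0.704), and 0.25 without WT replicate 3 (adjusted p = 0.532). The sign rested on WT replicate 3, and in neither fit did Alas1 pass.

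The balance of the isoenzymes turned over between the groups. Per length, on the deposited RPKM scale, the ratio of Alas2 to Alas1 came to 2.57, 1.72 and 0.851 for the WT libraries, against 0.188, 0.230 and 0.442 for the KO libraries. Alas2 was thus the higher of both in 2 of 3 WT libraries and the lower in all 3 KO libraries. As a log2 ratio of counts within each library, which needs no scaling between libraries, the mean was -0.24 ± 0.89 in WT and -3.13 ± 0.72 in KO (SD, n = 3 each). The difference of -2.88 had an exact two-sided permutation p of 0.1, the smallest that 3 libraries against 3 allow. On counts the log2 ratio was lowest in KO replicate 2 (-3.70, against -3.37 in KO replicate 1). On RPKM it was lowest in KO replicate 1 (-2.41, against -2.12 in KO replicate 2). Counts and RPKM thus differ by more than a fixed length per gene, and the reason was not tested.

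Alad, which condenses the product of ALAS to porphobilinogen, was at 25.1, 28.8 and 30.1 CPM in WT and 22.2, 29.9 and 28.8 CPM in KO. These ranges lie over each other, with a log2 fold change of -0.05 and a 95% interval of -0.59 to 0.48 (edgeR adjusted p = 0.928). Uros, the synthase that closes the porphyrin ring, was scarce, with 78, 49 and 80 WT counts against 36, 67 and 42 KO counts. On the CPM scale its KO libraries, 2.60 to 4.46, lay just below the WT libraries, 4.56 to 7.82. Its log2 fold change of -0.84 had a wide 95% interval of -2.27 to 0.60 (edgeR adjusted p = 0.498), which holds both 0 and a several-fold fall.

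Urod, the decarboxylase that trims the ring's side chains, was at 53.4, 49.6 and 57.0 CPM in WT and 26.8, 30.1 and 36.5 CPM in KO. The groups stood apart, with little spread within each. Urod fell by 0.78 on the log2 scale (SE 0.21, edgeR adjusted p = 0.0200), to 58.4% of the WT mean. The call was not firm. It was lost in 4 of the 6 fits that left out 1 library, namely those without replicate 1 of either group, WT replicate 3 or KO replicate 2 (highest adjusted p 0.0845), and with offsets for transcript length (-0.65, adjusted p = 0.0527). On RPKM values it was lost in each of the 3 limma fits (adjusted p 0.0660 to 0.104).

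Cpox and Ppox oxidise the ring intermediates at the mitochondrion. Cpox was at 87.2, 65.8 and 58.1 CPM in WT and 48.0, 49.0 and 53.8 CPM in KO. The groups did not overlap, but KO replicate 3 and WT replicate 3 lay close. Its log2 fold change of -0.48 (SE 0.19) did not pass (edgeR adjusted p = 0.109), and it was -0.30 without WT replicate 1, the highest library. Ppox, at 9.82, 4.84 and 6.94 CPM in WT and 5.70, 8.19 and 7.10 in KO, overlapped fully (log2 fold change -0.04, adjusted p = 0.976). With 52 to 123 counts per library, its 95% interval ran from -1.17 to 1.09.

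Fech encodes ferrochelatase, which places iron in the finished ring and itself carries an iron-sulfur cluster. It was at 88.3, 42.6 and 31.5 CPM in WT and 12.4, 4.39 and 15.9 CPM in KO. All KO libraries lay below all WT libraries, with WT replicate 1 the highest and KO replicate 2 the lowest, as for Alas2. The mean was 54.2 ± 30.1 CPM in WT and 10.9 ± 5.91 in KO (SD, n = 3 each). Fech fell by 2.31 on the log2 scale (SE 0.56, edgeR adjusted p = 0.0401), which left 20.1% of the WT mean. The call was lost when WT replicate 2, or replicate 1 or 3 of KO, was left out (adjusted p = 0.0672, 0.149 and 0.0533). In the same 6 fits the log2 fold change stayed between -2.69 and -1.77. The adjusted p was 0.0347 with length offsets, 0.00264 with the replicate number as a block, 0.00302 with the Y-linked covariate, 0.00279 with both replicate 3 libraries left out, 0.00449 with limma-voom and 0.104 to 0.145 on RPKM values.

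Hmox1, the inducible haem oxygenase that opens the ring to release iron, was at 11.7, 6.42 and 157 CPM in WT and at 12.8, 7.39 and 5.99 CPM in KO. The KO libraries fell within the range of WT replicates 1 and 2, or nearly so, and WT replicate 3 alone was high. The log2 fold change of -2.74 (edgeR adjusted p = 0.367) came to -0.05 without WT replicate 3 (adjusted p = 0.976). With WT replicate 3 and KO replicate 3 both left out it was 0.16.

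**Figure D2:**
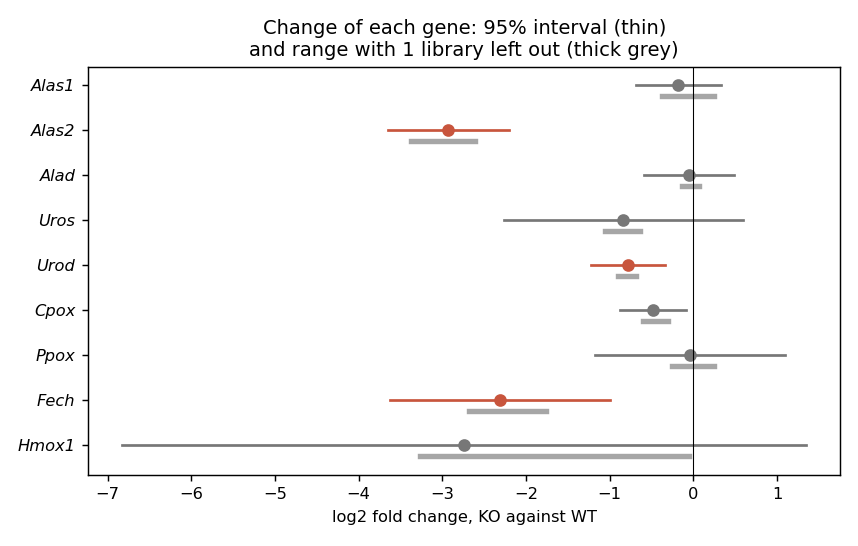
Log2 fold change of each gene, KO against WT, with its 95% interval (thin line) and the range over the 6 fits that left out 1 library (thick grey line below); red marks an adjusted p under 0.05 and grey the rest. Alas2 at -2.93 and Fech at -2.31 lie far from 0, Urod lies at -0.78, and the interval of Hmox1 spans -6.83 to 1.35.

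Levels can be compared between genes only per length, so the order of the steps was read from the deposited RPKM values. As the Alas2 to Alas1 ratio shows, these values do not follow the counts by a fixed length per gene. In WT, Urod was at 45.7 ± 3.10 RPKM, Hmox1 at 30.4 ± 44.8, Alas2 at 25.3 ± 7.69, Cpox at 24.6 ± 5.08, Fech at 21.4 ± 11.9 and Alas1 at 16.8 ± 7.56 (SD, n = 3 each). Hmox1 had that mean through WT replicate 3, with 5.81, 3.25 and 82.2 RPKM, so its range overlapped those of all the others. Urod lay above Alas2, Cpox, Fech and Alas1 with no overlap, and the ranges of these 4 overlapped, so their order is not resolved. Below these 4, with no overlap, came Alad at 5.27 ± 0.630, Ppox at 3.48 ± 1.18 and Uros at 3.28 ± 0.839 RPKM, which overlapped each other in turn.

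In KO the order was clearer at the top. Urod at 26.3 ± 3.54 RPKM, Cpox at 17.9 ± 1.78 and Alas1 at 15.0 ± 0.225 did not overlap their neighbours. Below them came Alad at 4.89 ± 0.726, Fech at 4.38 ± 2.45 and Hmox1 at 4.35 ± 1.76 RPKM. Next were Alas2 at 4.32 ± 2.12 and Ppox at 3.29 ± 0.557. From Alad down to Ppox each gene overlapped the next. Uros was lowest at 1.92 ± 0.462, with no overlap with Ppox. Alas2 and Fech thus shared the range of Cpox and Alas1 in WT, and in KO lay below both with no overlap, in the range of Alad.

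**Figure D3:**
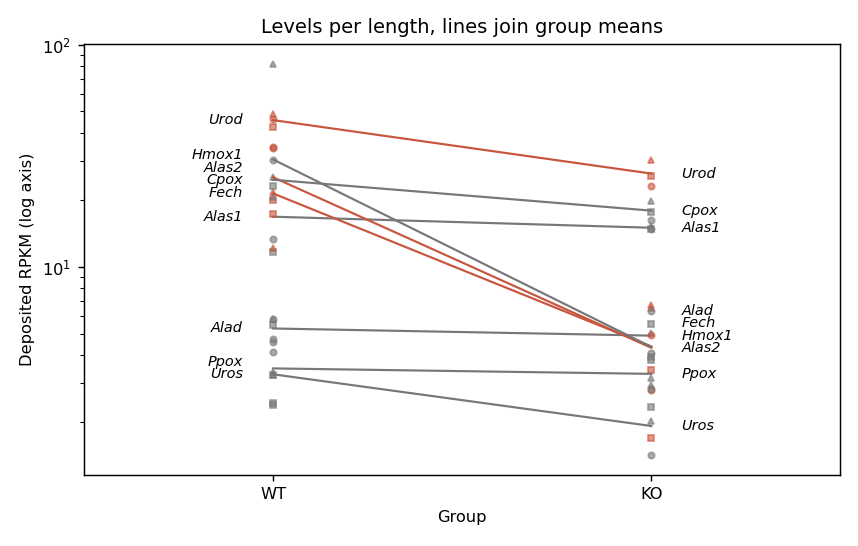
Deposited RPKM (log axis) of the 9 genes in WT and KO; points are libraries, lines join group means, red marks genes with an adjusted p under 0.05 on counts, and gene names are spread apart where means lie close. The lines of Alas2 and Fech drop from 25.3 and 21.4 RPKM to 4.32 and 4.38, next to Alad, while those of Alas1 and Alad are nearly flat.

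Markers of red cell precursors were lower in KO together with Alas2 and Fech, and so were markers of most other cell types read. The summed level of 25 erythroid markers, without the haem genes, came to 1006, 667 and 585 CPM for the WT libraries, against 262, 204 and 273 CPM for the KO libraries. Every KO library also lay below every WT library in the summed levels of granulocyte markers (407 to 580 CPM in WT, 232 to 264 in KO), megakaryocyte markers (432 to 495 and 300.4 to 337), hepatoblast markers (179 to 233 and 91.1 to 164), endothelial markers (228 to 1106 and 146 to 196), macrophage markers and the stem cell markers given above. Mast cell and basophil markers were the exception, at 4.51 to 14.6 CPM in WT and 22.1 to 66.0 in KO. The library order of the erythroid sum was that of Fech in all 6 libraries, from WT replicate 1 down to KO replicate 2. Most of the KO sums came from Car2 alone, at 204, 140 and 156 CPM. The place of KO replicate 2 as the lowest rests on that gene, so the shared order does not describe the list as a whole. Of 17 erythroid markers tested, 6 were lower and 0 higher (Slc4a1, Epb4.2, Sptb, Trim10 and Car2 among them), and at an unadjusted p under 0.05 the counts were 11 and 0 (edgeR). DESeq2 called 10 lower and limma-voom 8, and neither called a higher one. Of the 17, 15 had a log2 fold change below 0, and the other two were Epor, the erythropoietin receptor (0.67, adjusted p = 0.427), and the globin Hbb-y. Slc4a1, the red cell anion exchanger, was at 174 ± 92.5 CPM in WT and 16.5 ± 4.18 in KO, and Trim10, a protein of late red cell precursors, at 14.8 ± 1.65 and 1.25 ± 0.915 (SD, n = 3 each). The log2 fold changes of these 6 ran from -3.59 for Epb4.2 to -1.06 for Car2. The Slc4a1 call was lost without KO replicate 2 (adjusted p = 0.0661). The part of these marker sums in the falls of Alas2 and Fech was not tested.

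Globin is the protein that takes up most haem in red cells. The adult globins could not be tested on counts, since their 5 rows held 0 counts in every library. The embryonic globin gene Hbb-y was tested and had 0, 0 and 47 counts in WT against 8, 100 and 260 in KO, an overlap with a log2 fold change of 2.89 and no call (edgeR adjusted p = 0.465). It passed in 1 of the 6 fits without 1 library, that without WT replicate 3 (adjusted p = 0.0079). The other embryonic globin rows, Hba-x and Hbb-bh1, held 0 to 40 counts and were too low to be tested. The deposited RPKM table lists values for these adult globins, which were named after their values were seen. Hba-a2 was at 909, 729 and 657 RPKM in WT and 55.0, 62.7 and 108 RPKM in KO, and Hbb-bs at 3330, 2854 and 2295 against 146, 215 and 93.9. For both genes, and for Hbb-bt, every KO value lay below every WT value. Hbb-b1 did not follow, at 373, 20.2 and 0.0012 RPKM in WT against 48.5, 0.00094 and 234 in KO, and Hba-a1 was near 0 throughout. Globin genes are near-identical copies, so their values are uncertain, and the sources used here do not say how rows with 0 counts came to have such RPKM values.

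Among 11 erythroid transcription factors, Klf1 was lower, and Zfpm1 and Ldb1 were higher. Klf1, which drives late red cell genes, was at 23.4, 13.2 and 16.5 CPM in WT and 9.01, 2.06 and 5.05 CPM in KO, with no overlap. It fell by 1.72 on the log2 scale (edgeR adjusted p = 0.0285), and the call was lost when WT replicate 1, or replicate 2 or 3 of KO, was left out (highest adjusted p 0.141). Gata1, at 14.0 ± 3.85 CPM in WT and 11.6 ± 3.52 in KO (SD, n = 3 each), overlapped (log2 fold change -0.28, adjusted p = 0.731). Its partner Zfpm1 rose from 238 ± 13.2 to 346 ± 18.1 CPM (log2 fold change 0.54, adjusted p = 0.00209). Ldb1, a bridging cofactor of the same complex, rose by 0.44, a call lost in 4 of the 6 fits without 1 library (replicate 2 of either group, WT replicate 1 or KO replicate 3). The median of the list was -0.07.

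Markers of macrophages, which clear red cells and hold much Hmox1, and of endothelium stood high in the same library as Hmox1. The summed level of 19 macrophage markers was 220, 113 and 1230 CPM in WT and 104, 56.7 and 76.9 CPM in KO. WT replicate 3 was highest for these markers, for the endothelial sum, for Hmox1 and for Alas1. C1qb, a complement gene of macrophages, was at 11.8, 5.49 and 93.5 CPM in WT and 2.68 to 4.47 in KO. All 16 macrophage markers tested had log2 fold changes below 0 (median -3.16). Without WT replicate 3 the median was -0.96, 14 of the 16 were below 0, and Timd4 and Marco were above it. In the fit of all 6 libraries 1 of the 16 passed, Clec4f, with 13, 27 and 72 counts in WT and 0 in each KO library, where a count of 0 allows up to 3 counts. Its call was lost without WT replicate 3 or KO replicate 2 (adjusted p 0.086 at most). Without WT replicate 3, its highest library, Hmox1 overlapped between the groups with a difference near 0, which does not bear on what made that library high. The part of macrophage or endothelial RNA in the level of Hmox1 was not tested.

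**Figure D4:**
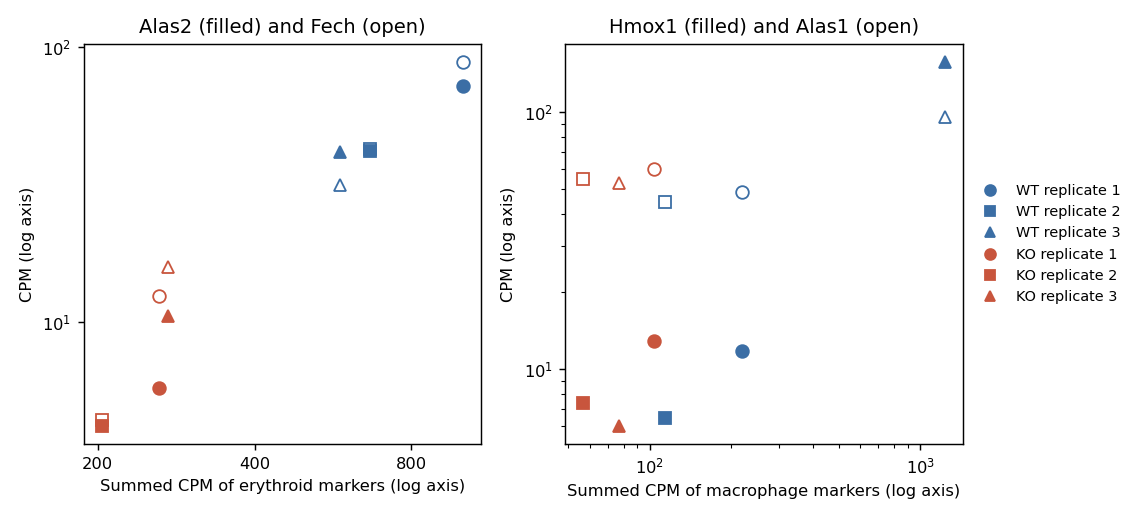
Left, CPM of Alas2 (filled) and Fech (open) against the summed CPM of erythroid markers; right, CPM of Hmox1 (filled) and Alas1 (open) against the summed CPM of macrophage markers; each point is 1 library, blue for WT and red for KO, and all axes are logarithmic. On the left KO libraries sit at 204 to 273 CPM of markers and WT libraries at 585 to 1006; on the right WT replicate 3 sits alone at 1230.

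Substrate supply and transport around the pathway were mixed. Of 16 genes, 4 were lower and 2 higher, with a median log2 fold change of -0.16. The lower ones act on iron or porphyrin at the mitochondrial membranes. Slc25a37, or mitoferrin-1, which imports iron for ferrochelatase, went from 107 ± 45.6 to 46.7 ± 6.86 CPM, and Abcb10, which holds mitoferrin-1 in place, from 34.0 ± 0.375 to 18.6 ± 1.66 CPM (SD, n = 3 each). Tmem14c, needed to move protoporphyrinogen into the matrix, was at 69.9, 76.2 and 92.5 CPM in WT and 43.8, 32.2 and 39.1 CPM in KO. Fam210b, a mitochondrial protein of red cell precursors, was at 29.9, 13.6 and 27.8 CPM in WT and 4.25, 4.33 and 4.02 CPM in KO, the most even KO values of these 4. The log2 fold changes were -1.19 for Slc25a37, -0.87 for Abcb10, -1.05 for Tmem14c and -2.50 for Fam210b (edgeR adjusted p = 0.00418, 0.0314, 0.00107 and 0.000412). Abcb10 did not pass in any of the 6 fits without 1 library (adjusted p 0.0509 to 0.114), and the other 3 kept theirs in each of these fits.

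The 2 higher genes of that list belong to mitochondrial metabolism and protein turnover. Shmt2, which makes glycine in the mitochondrion, rose from 143 ± 11.5 to 366 ± 28.4 CPM, a log2 fold change of 1.36 (SE 0.11). Lonp1, a matrix protease that degrades ALAS1, was at 95.6, 140 and 151 CPM in WT and 206, 214 and 169 CPM in KO. It rose by 0.61 on the log2 scale (edgeR adjusted p = 0.0144), and the call was lost when replicate 1 of either group, or KO replicate 2, was left out (highest adjusted p 0.0906). The glycine importer Slc25a38 did not pass (log2 fold change -0.48, adjusted p = 0.600), nor did mitoferrin-2, Slc25a28 (0.72, adjusted p = 0.162), or the porphyrin transporter Abcb6 (-0.13, adjusted p = 0.903).

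Among 12 genes of haem export, use and breakdown, 1 was lower and 0 higher, against 5 and 0 at an unadjusted p under 0.05 (edgeR) and 2 and 0 with DESeq2. The lower gene, Blvrb, a biliverdin reductase that is abundant in red cells, was at 38.7, 17.6 and 32.7 CPM in WT and 9.23, 9.05 and 5.13 CPM in KO. It fell by 1.92 on the log2 scale (adjusted p = 0.00159). The related reductase Blvra did not pass (-0.22, adjusted p = 0.783). Hmox2, the constitutive haem oxygenase, was at 133, 104 and 118 CPM in WT and 97.9, 96.5 and 74.0 CPM in KO, with no overlap and no call (-0.40, adjusted p = 0.108). Bach1, the haem-sensing repressor of Hmox1, and Eif2ak1, the haem-regulated kinase HRI that raises ATF4 translation, were named after their values were seen. Their log2 fold changes were -0.36 and -0.40 (adjusted p = 0.143 and 0.216).

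**Figure D5:**
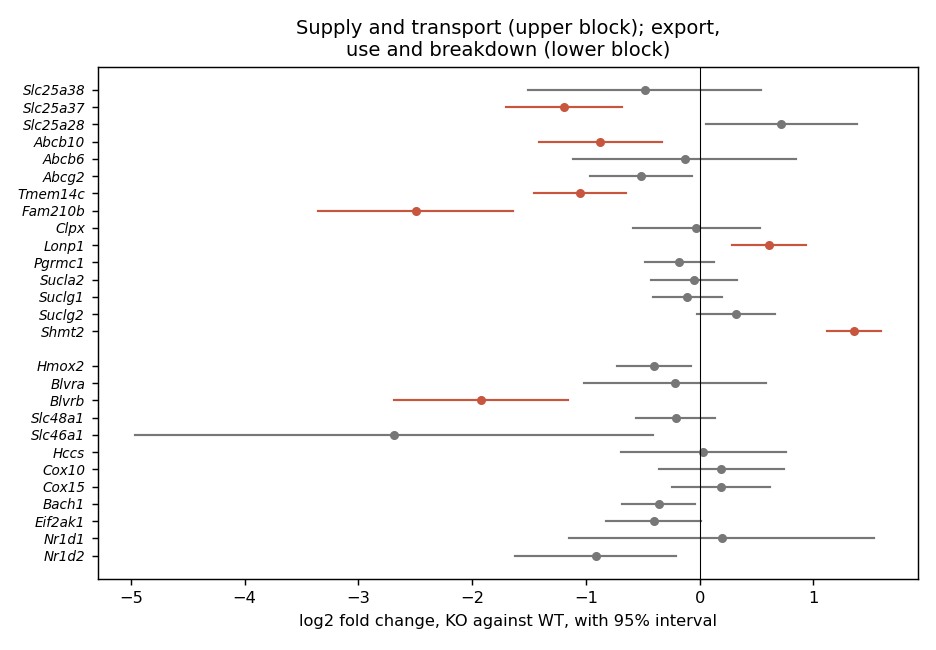
Log2 fold change, KO against WT, with 95% interval, for 15 supply and transport genes (upper block) and the 12 genes of export, use and breakdown (lower block); red marks an adjusted p under 0.05. Slc25a37, Abcb10, Tmem14c, Fam210b and Blvrb lie below 0 and Lonp1 and Shmt2 above it.

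Cellular iron genes had 4 of 16 lower and 0 higher, and 5 lower and 1 higher at an unadjusted p under 0.05 (edgeR), with 4 and 0 by both DESeq2 and limma-voom. Fth1, the ferritin heavy chain that stores iron, was at 637, 653 and 861 CPM in WT and 447, 398 and 379 CPM in KO, and Ncoa4, which delivers ferritin for breakdown, went from 205 ± 8.19 to 121 ± 7.23 CPM (SD, n = 3 each). Ireb2, an iron sensor whose protein binds the Alas2 message, fell by 0.55 on the log2 scale, with a call lost in 4 of the 6 fits without 1 library (replicate 1 of either group, WT replicate 3 or KO replicate 2). Pcbp2, an iron chaperone, fell by 0.41, with a call lost without KO replicate 2 or KO replicate 3. Tfrc, the transferrin receptor that feeds iron to red cell precursors, was at 103, 40.8 and 80.9 CPM in WT and 45.4, 82.4 and 71.1 CPM in KO, an overlap with no call (-0.17, adjusted p = 0.817).

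Regulators of the housekeeping isoenzyme were read beside Alas1. Of 10 such genes 0 passed in either direction, with 1 higher and 1 lower at an unadjusted p under 0.05 (edgeR), and DESeq2 and limma-voom also called 0. Nrf1, whose motif stands in the Alas1 promoter shown above, was at 64.2 ± 6.23 CPM in WT and 74.6 ± 8.53 in KO (log2 fold change 0.22, adjusted p = 0.481). The coactivator gene Ppargc1a was scarce, at 10 to 100 counts in WT and 25 to 48 in KO.

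NRF2 targets, the antioxidant genes induced with Hmox1 in many cells, had 1 of 13 higher and 2 lower, with a median of -0.18. The higher gene was the cystine transporter Slc7a11, also a target of ATF4, at 2.81, 1.30 and 1.70 CPM in WT and 28.8, 28.6 and 29.3 CPM in KO. The lower ones were Prdx1, a peroxiredoxin (-0.74), and G6pdx, of the pentose phosphate pathway (-0.65), which passed in 0 of the 6 fits without 1 library. Nfe2l2, which encodes NRF2, and Keap1, its inhibitor, had log2 fold changes of -0.18 and 0.09 (adjusted p = 0.584 and 0.830).

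Of 15 genes of the integrated stress response, the ATF4 pathway that HRI can switch on when haem is short, 10 were higher and 0 lower (12 and 0 at an unadjusted p under 0.05, edgeR). DESeq2 called 10 and 0, and limma-voom 11 and 0. The higher genes were Atf4, Ddit3, Atf5, Trib3, Asns, Chac1, Sesn2, Eif2ak4, Nupr1 and Cebpg, with a median of 1.95 over the list. Without 1 library, 7 to 11 of the 15 passed. Chac1 lost its call without any 1 KO library (highest adjusted p 0.129), and Cebpg without replicate 3 of either group or KO replicate 2 (highest adjusted p 0.102). Of the kinases that start this response, Eif2ak4 (GCN2) rose by 0.84 (log2), and missed the threshold without KO replicate 2 (adjusted p = 0.0567). Eif2ak2 (PKR) and Eif2ak3 (PERK) stood at 0.03 and -0.37 (adjusted p = 0.955 and 0.517).

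Genes that followed the same course over the 6 libraries were named by the highest Pearson correlation of log2 CPM among 10236 tested genes with a mean of at least 5 CPM. The groups lie apart for some genes, so this is a description of likeness. For Alas2 they were Wdr37, Psd3, Piga, Arrdc4 and Ssh1 (r = 0.992 to 0.994). Each of these had every KO library below every WT library. Psd3 and Arrdc4 passed the threshold, with log2 fold changes of -0.99 and -1.48. Wdr37, Piga and Ssh1 did not pass (-0.63, -0.87 and -0.67, edgeR adjusted p = 0.0754, 0.0591 and 0.139). For Alas1 they were Mknk1, Frmd4b, Nid2, Tfeb and Arhgap29 (r = 0.976 to 0.990), and for Hmox1 Sdpr, Fam222b, Hexa, Slc43a2 and Nos3 (r = 0.975 to 0.987). All 10 of the latter were highest in WT replicate 3 and none passed the threshold (edgeR adjusted p 0.223 to 0.942).

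Transcript length moved with the groups over all genes. The slope of a library's log2 deviations per doubling of length ran from -0.087 to 0.004 in WT and from 0.021 to 0.050 in KO. The longest transcripts of the 9 genes ran from 1489 nt for Urod to 6571 nt for Fech, around a median of 3437 nt for tested genes. With offsets for length, Alas2 stood at -2.88, Fech at -2.33 and Urod at -0.65.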

How the data were processed

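Total RNA was made into libraries with a strand-marking kit for nanogram input and sequenced on a NextSeq500, per the labels' protocols. The authors deposited whole-number counts per gene symbol and a table of RPKM values, 1 column per library. TopHat, Cufflinks and the mm9 build are named in the submitters' processing notes. The sources used here do not state versions, counter, annotation, strand setting or the handling of multiply mapped reads, so overlapping genes and near-identical copies are uncertain, and the files give no gene coordinates.

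Counts were tested with edgeR 4.0.16 in R 4.3.3 (TMM, filterByExpr, robust quasi-likelihood F test, group only), adjusted by Benjamini-Hochberg over 12204 genes with a threshold of 0.05. CPM used TMM library sizes. SEs were derived from the log2 fold change and F, and 95% intervals used the fit's degrees of freedom. On simulated data of 12204 genes, 54% of 200 genes changed 2-fold were recovered, and 88.5% of 200 changed 4-fold in a separate run. The changed genes were drawn from those with a mean of at least 5 CPM, so these rates do not cover scarcer genes. Of the genes called, 11 of 119 (2-fold) and 13 of 190 (4-fold) were false calls. Alternatives were RLE or no scaling, DESeq2 1.42.0, limma-voom (limma 3.58.1), no filter on low counts, a replicate block, a Y-linked covariate, limma on log2(RPKM + 1) and log2(RPKM + 0.1), and leaving out each library. Offsets for GENCODE M21 transcript length, leaving out WT replicate 3 with KO replicate 3, and marker lists without WT replicate 3, were chosen after seeing the data. Chi-square per degree of freedom was 21.7 to 43.1 between replicates, far above counting noise for every pair.

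The 9 genes and the gene lists were chosen with earlier results of these data known. Genes named are the 9, Uqcrfs1, every list gene past the threshold, at most 4 others a list in written order, and the 5 genes most like Alas1, Alas2 and Hmox1. Marker lists of megakaryocytes, granulocytes, hepatoblasts and of mast cells with basophils were also read. Some genes of these lists are not reported here by name. Protein sequences were not used here.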

Additional observations from a re-analysis of the deposited data

How the results depend on the processing

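The number of genes past the threshold was 1391. It was 116 with limma on log2(RPKM + 1), 69 with log2(RPKM + 0.1), 102 without a filter on RPKM, and 640 with WT replicate 3 and KO replicate 3 both left out. Leaving out 1 library gave 712 (without KO replicate 2) to 1263, with 833 without KO replicate 3. The number of haem genes past it was 3, and 1, 0 and 0 in the 3 RPKM fits, and 1 to 2 with 1 library left out, with 1 without KO replicate 1. The Alas2 to Alas1 log2 ratio kept its direction, with -3.36 to -2.48 over the fits that left out 1 library and -2.54 on RPKM.

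Signs turned only among genes that did not pass. Over the fits that left out 1 library, Alas1 ran from -0.378 to 0.251, Alad from -0.134 to 0.0673 and Ppox from -0.259 to 0.246. Alas1 was 0.251 without WT replicate 3 and 0.294 with KO replicate 3 also left out. Alad was 0.00306 with no scaling factor, 0.00144 without WT replicate 3, 0.0673 without KO replicate 1 and 0.0443 with length offsets. Ppox was 0.0168 with no scaling factor, 0.0176 with limma-voom, 2e-04 with the replicate block, 0.246 without WT replicate 1 and 0.0868 without KO replicate 1. Hmox1 was 0.161 with WT replicate 3 and KO replicate 3 both left out, and DESeq2 gave no adjusted p for it.

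With the replicate number as a block, 1341 genes and 3 haem genes passed, and the Alas2 to Alas1 log2 ratio differed by -2.88 (exact sign-flip p = 0.25, the smallest 3 pairs allow). Same-numbered libraries had correlations of deviations of 0.022, 0.012 and -0.003, and other pairs of WT with KO had -0.023 to 0.013. These values do not show whether same-numbered libraries share more than a number. Uros, with 36 to 80 counts per library, and Ppox, with 52 to 123, had SEs of 0.69 and 0.54 on the log2 scale, and the part of depth in them was not tested.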
